A study of Homo sapiens with 6 samples.

Results

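Mitochondrial ribosomal proteins were examined in carfilzomib-resistant and parental multiple myeloma cells. The members are the probe sets whose single annotated gene symbol is MRPL or MRPS followed by a number, with or without a final A, B or C. The rule took 140 of the 54613 probe sets on the array, for 75 of 19775 genes. Of these, 83 probe sets of 48 MRPL genes were assigned to the large subunit and 57 probe sets of 27 MRPS genes to the small subunit, by the letter of the symbol. RefSeq holds 77 protein coding genes with such a symbol. The other 2, MRPL53 and MRPS24, are measured here only by a probe set shared with another gene and were left out.

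LP-1/Cfz is a derivative of LP-1, a human multiple myeloma cell line, obtained by selection in the proteasome inhibitor carfilzomib up to 12 nM. RNA was taken from 3 LP-1/Cfz samples that had grown for 1 week without the drug and from 3 samples of parental LP-1 cells that were never selected in it. Both were cultured in 4% serum according to the sample labels, and each sample was hybridised to 1 Affymetrix human genome array. LP-1/Cfz is a single resistant derivative of a single parental line, and nothing states that the 3 samples of a group came from separate cultures, so p-values measure the spread between these samples only.

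Mitochondrial ribosomes translate the small set of respiratory chain subunits that mitochondrial DNA encodes. Their RNA comes from mitochondrial DNA, whereas all of their proteins are encoded in the nucleus, made in the cytosol and imported. The small subunit decodes the mRNA, and the large subunit joins the amino acids and passes the new chain towards the inner membrane. Part of the proteins descend from bacterial ribosomal proteins and part occur only in mitochondria. Respiratory chain complexes need both the mitochondrial products and nuclear encoded subunits.

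Values are log2 values centred probe set by probe set, which keeps the differences between arrays and loses how abundant a transcript is. In bulk RNA, fewer cells with a transcript and less of it per cell cannot be told apart. The labelled cell type could likewise be checked only through differences. Of 12 plasma cell markers, SLAMF7 and CD38 fell by 2.17 and 1.07 on the log2 scale, and 4 (SDC1, MZB1, SSR4 and TNFRSF17) rose by 0.27 to 0.45, where 16.7% of all genes were called. Among markers of other cell types, 3 of 13 for T and NK cells, 0 of 11 for myeloid cells and 2 of 12 for stromal cells changed, and the part of any of these in the results was not tested. One array, LP-1/Cfz replicate 3, stood apart: the interquartile range of its values was 0.338, where the others had 0.23 to 0.264. Several counts of calls and medians are therefore also given without it, but not the counts of groups that do not overlap.

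Mitochondrial ribosomal protein transcripts that differed between LP-1/Cfz and LP-1 cells did so by small amounts, and their share was near the background. With limma and an adjusted p under 0.05 over all probe sets, 3 of the 140 probe sets rose in LP-1/Cfz cells, 9 fell and 128 did not pass. These are 2.14% and 6.43% of the members, where the background over all probe sets was 4.25% higher and 6.76% lower. In either direction 8.57% of the members were called, against 11% of all probe sets. The LP-1/Cfz and LP-1 values did not overlap for 57 of the 140 probe sets (40.7%, against a background of 30.7%) and for 31 of the 75 genes (41.3%, against 35.9%). No member reached the 1.7-fold change used as a cutoff in the study, which 1.59% of all probe sets did. Without LP-1/Cfz replicate 3, 3 member probe sets were higher and 8 lower, with 9.81% of all probe sets called.

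At the level of genes, where the probe sets of a gene were averaged, 3 of 75 members rose (MRPS33, MRPL51 and MRPL24) and 5 fell (MRPL42, MRPS28, MRPL35, MRPS16 and MRPL43). This is 10.7% of the members, against 16.7% of all genes, of which 6.72% were higher and 10% lower. The 95% confidence interval of every one of the 75 genes lay within a 1.5-fold change in either direction, and that of 53 of the 67 genes not called lay within a 1.2-fold change. The differences of the genes not called ran from −0.23 for MRPL39 to 0.21 for MRPS21. At an unadjusted p under 0.05 there were 34 member probe sets (24.3%, and 24.3% of all probe sets) and 20 member genes (26.7%, against 29.8% of all genes). Without LP-1/Cfz replicate 3, MRPL24 was no longer called, and MRPS21 and MRPS35 were called in addition. This gave 4 genes higher and 5 lower (12% of the members, against 16.1% of all genes).

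**Figure D1:**
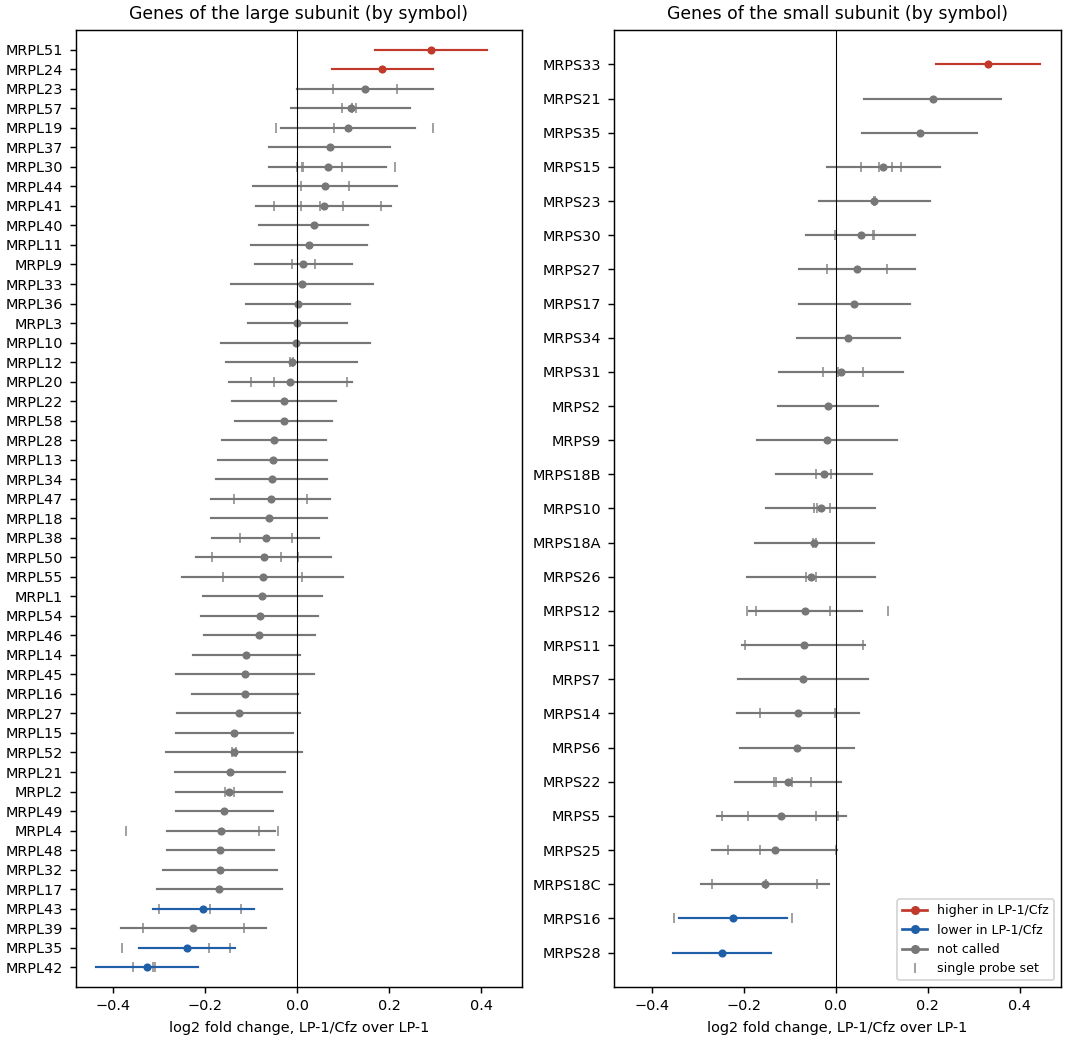
Log2 fold change (LP-1/Cfz over LP-1) of the 75 mitochondrial ribosomal protein genes, each a mean over its probe sets, with bars for the 95% confidence interval from limma and colours for the call at an adjusted p under 0.05. Large and small subunit genes are drawn apart, and 8 of the 75 genes are called, with every interval inside a 1.5-fold change either way.

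Of the large subunit probe sets, 2 rose and 7 fell in LP-1/Cfz cells (10.8% of 83), and of the small subunit probe sets 1 was higher and 2 were lower (5.26% of 57), with 11% of all probe sets called. Of the genes, 5 of 48 in the large subunit (2 higher, 3 lower) and 3 of 27 in the small subunit (1 higher, 2 lower) were called, which is 10.4% and 11.1%, against 16.7% of all genes. The median log2 fold change was −0.0457 over large subunit and −0.0285 over small subunit probe sets, against 0.0166 over all probe sets. Moving MRPS18A and MRPS30, which sit in the large subunit of the human structure, to that subunit changed neither count of called genes. Without LP-1/Cfz replicate 3, 1 large subunit probe set was higher and 7 were lower, and 2 small subunit probe sets were higher and 1 was lower. The called genes were then 4 of 48 (8.33%) and 5 of 27 (18.5%), against 16.1% of all genes. The difference between the subunits was not tested.

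The members had a slight downward shift, whose median was furthest from 0 on 1 array. Of the member probe sets, 89 of 140 (63.6%) lay below 0, against 45.6% of all probe sets. The median difference of the large subunit from the LP-1 mean was −0.0171, −0.0163 and −0.115 on LP-1/Cfz arrays 1 to 3, against 0.0245, −0.0257 and 0.00438 on the LP-1 arrays. For the small subunit it was −0.0176, 0.00907 and −0.0771 on the LP-1/Cfz arrays, against 0.0286, −0.0265 and −0.00312 on the LP-1 arrays. LP-1/Cfz arrays 1 and 2 thus lay among the LP-1 arrays for both subunits, and only array 3, the one that stood apart, lay below them. Without it the medians were −0.0192 and −0.0107, against 0.00918 over all probe sets, and 56.4% of the members lay below 0, against 47.4% of all probe sets. Over genes, 66.7% of the 75 members lay below 0 with all arrays, against 45% of all genes, and 62.7% without that array, against 47.4%.

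**Figure D2:**
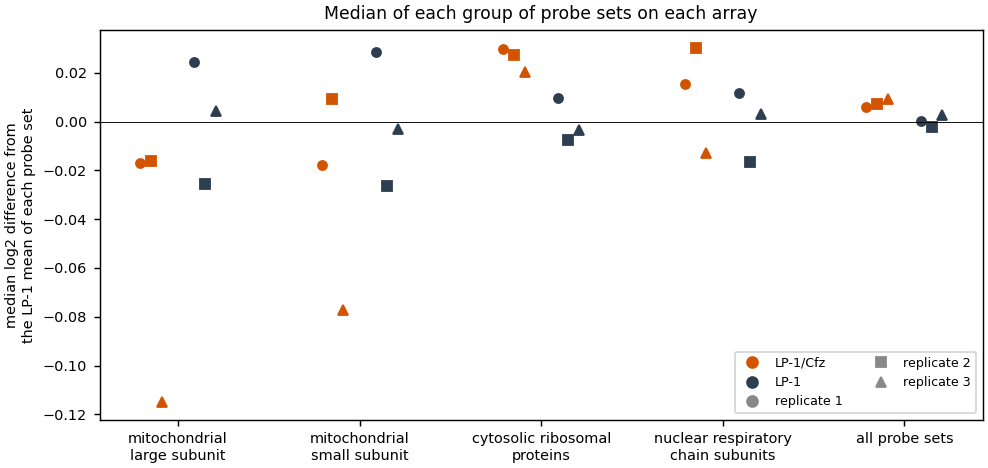
Median difference from the LP-1 mean (log2) on each array, for the large and the small mitochondrial ribosomal subunit, cytosolic ribosomal proteins and nuclear respiratory chain genes taken by symbol, with LP-1/Cfz arrays to the left of LP-1 arrays. The large subunit stood at −0.115 on LP-1/Cfz array 3 and at −0.0171 and −0.0163 on the other LP-1/Cfz arrays.

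Among the large subunit members that fell, MRPL42 had the most uniform decrease. MRPL42 is one of the proteins found in mitochondrial but not bacterial ribosomes, and all 3 of its probe sets were called lower, which held for no other gene with several probe sets. Probe set 242289_at gave −0.25, −0.30 and −0.31 in LP-1/Cfz cells, against 0.08, 0.04 and 0.10 in LP-1 cells. The groups did not overlap, and values within each lay close together. The log2 fold change of this probe set was −0.36 (SE 0.058, limma adjusted p = 0.00681), and the other 2 gave −0.31 each (217919_s_at, adjusted p = 0.0127, and 222466_s_at, adjusted p = 0.0174). The call on 242289_at was kept whichever array was left out. That on 217919_s_at was lost without LP-1 replicate 1 or 3 (adjusted p = 0.0605 and 0.0631), and that on 222466_s_at without LP-1/Cfz replicate 1 or any 1 of the LP-1 samples (adjusted p from 0.0529 to 0.0736). The mean over the probe sets fell by 0.33 on the log2 scale (adjusted p = 0.00303).

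MRPL35, a large subunit protein with a bacterial counterpart, gave the lowest member probe set. On 225255_at the LP-1/Cfz samples were at −0.43, −0.31 and −0.41, against −0.06, 0.01 and 0.04 in the LP-1 samples. The gap between the groups was wider than the spread within either, with a log2 fold change of −0.38 (SE 0.065, limma adjusted p = 0.00843). Its other probe sets gave −0.19 and −0.15 and did not pass (adjusted p = 0.0891 and 0.282), and the gene mean fell by 0.24 (adjusted p = 0.00948).

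MRPL4 and MRPL39 were called on 1 probe set each, but not as genes. MRPL4, the counterpart of a bacterial protein that lines the exit tunnel, was at 0.13, 0.13 and −0.04 in LP-1/Cfz cells and at 0.46, 0.45 and 0.42 in LP-1 cells on 223742_at. All LP-1/Cfz samples were below all LP-1 samples (log2 fold change −0.37, SE 0.0691, limma adjusted p = 0.0122), whereas the other probe sets gave −0.04 and −0.08 and the gene mean −0.17 (adjusted p = 0.0614). Without LP-1 replicate 1 or 2 the call on 223742_at was lost (adjusted p = 0.0552 and 0.0519). MRPL39, a mitochondria-specific protein related in sequence to threonyl-tRNA synthetase, was at −0.06, −0.05 and −0.14 in LP-1/Cfz cells on 218558_s_at, against 0.27, 0.23 and 0.25 in LP-1 cells. The groups were clearly separated there (−0.33, SE 0.0592, limma adjusted p = 0.00979), but the other probe set gave −0.12 and the gene mean was not called (−0.23, adjusted p = 0.0598).

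MRPL43, another mitochondria-specific protein of the large subunit, is encoded on chromosome 10 head to head with TWNK, the gene of the mitochondrial DNA helicase Twinkle. On 230027_s_at it was at 0.48, 0.50 and 0.47 in LP-1/Cfz cells, against 0.82, 0.73 and 0.81 in LP-1 cells. The groups did not overlap, and the log2 fold change was −0.30 (SE 0.0588, limma adjusted p = 0.0152). The other probe sets gave −0.19 and −0.12 without passing, and the gene mean fell by 0.20 (adjusted p = 0.0224). On the probe set the call was lost without LP-1/Cfz replicate 1 (adjusted p = 0.051) and without LP-1 replicate 1 or 3 (adjusted p = 0.0722 and 0.0723). As a gene, MRPL43 was no longer called without LP-1/Cfz replicate 2 or without any 1 of the LP-1 samples.

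Of the small subunit members, MRPS16 and MRPS28 fell. MRPS16 has a bacterial counterpart, and its loss is a known cause of inherited mitochondrial translation deficiency. On 218046_s_at it was at 0.03, 0.02 and −0.03 in LP-1/Cfz cells, against 0.40, 0.30 and 0.36 in LP-1 cells. Each LP-1/Cfz value was far below each LP-1 value (−0.35, SE 0.0608, limma adjusted p = 0.00881), while its other probe set, 222499_at, gave −0.09 (adjusted p = 0.458). The gene mean fell by 0.22 (adjusted p = 0.0205), a call lost without any 1 of the LP-1 samples.

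MRPS28, measured by a single probe set, was at −0.00, 0.00 and −0.05 in LP-1/Cfz cells and at 0.22, 0.23 and 0.23 in LP-1 cells. The values were tight within both groups and did not overlap. The log2 fold change was −0.25, with an adjusted p of 0.0302 over probe sets and 0.00887 over genes from limma. Over probe sets this call was lost when any 1 of the 6 arrays was left out (adjusted p from 0.0541 to 0.113), and over genes it was kept in all 6.

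The rises were on MRPS33, MRPL51 and MRPL23, and over genes on MRPL24. MRPS33, a mitochondria-specific protein of the small subunit, was at −0.26, −0.24 and −0.30 in LP-1/Cfz cells, against −0.55, −0.64 and −0.60 in LP-1 cells. It was the largest rise among the members, with no overlap of the groups (0.33, SE 0.0593, limma adjusted p = 0.0104). The call over probe sets was lost without LP-1 replicate 3 (adjusted p = 0.0516), and over genes the adjusted p was 0.00313.

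MRPL51, a mitochondria-specific protein of the large subunit, was at −0.16, −0.20 and −0.28 in LP-1/Cfz cells and at −0.46, −0.54 and −0.50 in LP-1 cells. All LP-1/Cfz values were higher (0.29, SE 0.0624, limma adjusted p = 0.0223 over probe sets and 0.00784 over genes). Over probe sets the call was kept only when LP-1/Cfz replicate 3 was the array left out, with adjusted p from 0.0629 to 0.0881 without any 1 of the other 5. MRPL23, the counterpart of a bacterial protein at the tunnel exit, was at 0.62, 0.63 and 0.62 in LP-1/Cfz cells, against 0.41, 0.37 and 0.44 in LP-1 cells on 213897_s_at. This separation gave 0.22 (SE 0.057, limma adjusted p = 0.0499), lost without any 1 array (adjusted p from 0.0702 to 0.153), and its other probe set gave 0.08. MRPL24, named here after its values were seen because it passed only over genes, was at 0.31, 0.28 and 0.34 in LP-1/Cfz cells, against 0.14, 0.09 and 0.13 in LP-1 cells (0.19, adjusted p = 0.0343 over genes and 0.0896 over probe sets). Its gene call was lost without any 1 array.

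**Figure D3:**
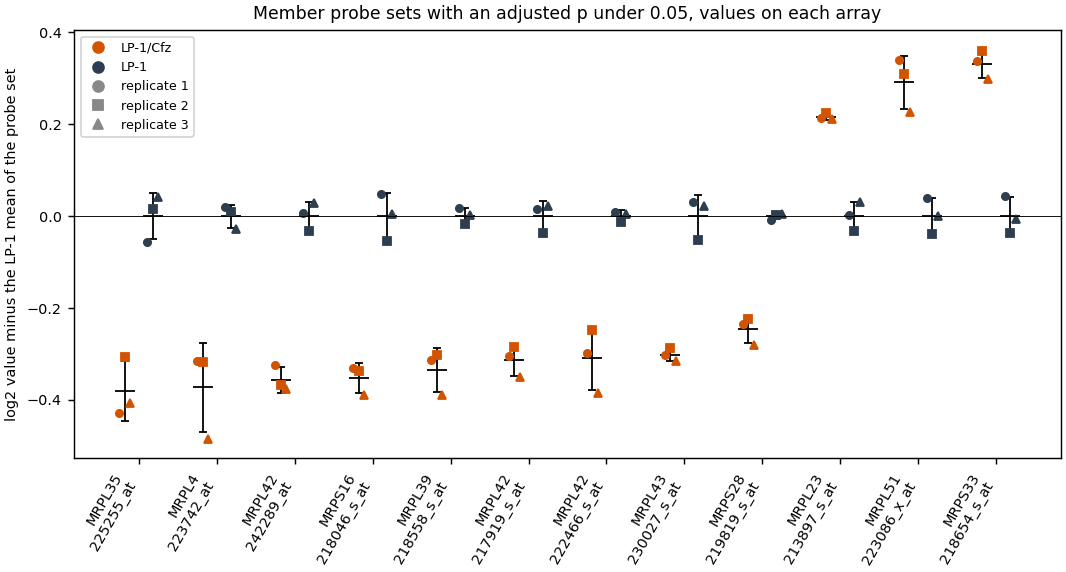
Centred log2 value on each of the 6 arrays for the 12 called member probe sets, with LP-1/Cfz arrays to the left of LP-1 arrays. The 12 were chosen by their adjusted p, which favours groups that do not overlap. In none of them do the groups overlap, where 30.7% of all probe sets do not. The differences run from −0.38 for MRPL35 to 0.33 for MRPS33.

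Probe sets of 1 gene often disagreed, so single calls are limited by the choice of probe set. Of the 37 genes with more than 1 probe set, 22 had all probe sets of 1 sign and 15 had both signs. Of those 37 genes, 7 had a called probe set, and MRPL42 alone had every probe set called. No gene was called in both directions. Of the member probe sets, 71 end in s_at and 14 in x_at, types that can hybridise to more than 1 transcript, and so did 8 and 1 of the 12 that were called. The 3 called probe sets without such an ending belong to MRPL35, MRPL4 and MRPL42.

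MRPL12 and MRPS12 were not called. MRPL12, which forms the stalk that binds translation factors, was at −0.01, −0.00 and −0.04 in LP-1/Cfz cells, against 0.11, −0.08 and −0.05 in LP-1 cells. The groups overlapped (−0.01, 95% interval −0.16 to 0.13, limma adjusted p = 0.921). MRPS12, at the decoding centre, gave −0.41, −0.38 and −0.52 in LP-1/Cfz cells, against −0.36, −0.38 and −0.37 in LP-1 cells. The groups lay next to each other, and the difference of −0.07 did not pass (95% interval −0.19 to 0.06, adjusted p = 0.457), with its 4 probe sets between −0.19 and 0.11. Of 46 genes with a bacterial counterpart, 1 was higher and 3 were lower, and of 29 mitochondria-specific genes 2 were higher and 2 lower, with medians of −0.0543 and −0.0533. These are 8.7% and 13.8% called, against 16.7% of all genes. Without LP-1/Cfz replicate 3, 1 was higher and 3 lower, and 3 were higher and 2 lower, with medians of −0.0276 and −0.022. The shares called were then 8.7% and 17.2%, against 16.1% of all genes. DAP3, a GTP-binding protein of the small subunit whose symbol does not follow the rule, gave −0.05 (adjusted p = 0.669). Of the 5 measured genes listed as mitochondrial ribosomal proteins with such other symbols, 0 were called. Whether KGD4, which is in that list, is part of the ribosome was not checked.

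Cytosolic ribosomal proteins and nuclear genes of the respiratory chain also changed little. The respiratory chain list was taken by the opening letters of the symbol. Such a list can also hold NDUFAF assembly factors, which are not subunits, and genes of ATP synthase. Of 121 probe sets of cytosolic ribosomal proteins, 4 rose and 1 fell in LP-1/Cfz cells (4.13% called), with a median of 0.0249. Of the 167 probe sets of the respiratory chain list, whose subunits work beside the products of the mitochondrial ribosome, 6 were higher and 6 lower (7.19% called), with a median of 0.00521. Over all probe sets 11% were called. Without LP-1/Cfz replicate 3, 6 respiratory chain probe sets were higher and 3 lower, with a median of 0.0245, and 3 cytosolic ribosomal protein probe sets were higher and 0 lower, with a median of 0.0295. Neither median went below 0 as that of the mitochondrial ribosomal proteins did. The respiratory chain median was also lowest on LP-1/Cfz array 3, at −0.0127, against 0.0155 and 0.0302 on LP-1/Cfz arrays 1 and 2. That of the cytosolic ribosomal proteins was 0.0203 on array 3, against 0.0297 and 0.0273. These differences between the lists were not tested.

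Several genes that control the mitochondrial genome and its expression fell. Of 17 regulators, 0 rose and 5 fell (29.4%, against 10% of all genes called lower), with a median of −0.12. NRF1, a transcription factor of nuclear genes for respiration, was at −0.33, −0.24 and −0.38 in LP-1/Cfz cells, against −0.04, 0.02 and −0.01 in LP-1 cells. It was lower in every LP-1/Cfz sample (−0.31, SE 0.0545, limma adjusted p = 0.00731), with 3 of its 5 probe sets called. GABPB1, the partner of the ETS factor GABPA, was at −0.33, −0.35 and −0.47 in LP-1/Cfz cells and at −0.17, −0.10 and −0.17 in LP-1 cells. This smaller decrease (−0.24, SE 0.0568, adjusted p = 0.026) was lost without LP-1 replicate 1, 2 or 3 (adjusted p = 0.0742, 0.0974 and 0.0731).

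PPRC1, a coactivator related to PGC-1 that works with NRF1, had the largest difference within the mitochondrial lists. It was at −0.20, −0.33 and −0.33 in LP-1/Cfz cells, against 0.27, 0.48 and 0.45 in LP-1 cells. The gap exceeded the whole spread within either group (−0.68, SE 0.072, limma adjusted p = 0.000624). TFAM, which packages mitochondrial DNA and starts its transcription, was at −0.06, −0.02 and −0.19 in LP-1/Cfz cells, against 0.23, 0.24 and 0.21 in LP-1 cells. TFAM was lower in all LP-1/Cfz samples (−0.31, SE 0.0581, adjusted p = 0.00856), with 2 of its 4 probe sets called. TWNK was at 0.03, −0.17 and −0.17 in LP-1/Cfz cells and at 0.36, 0.30 and 0.37 in LP-1 cells, again without overlap (−0.45, SE 0.0663, adjusted p = 0.00313). POLRMT, the mitochondrial RNA polymerase, gave −0.12 and did not pass (adjusted p = 0.377). The calls of PPRC1, TWNK, TFAM and NRF1 were kept when any 1 array was left out, but PPRC1 and TWNK were each measured by a single probe set.

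Of 29 genes for assembly of the mitochondrial ribosome and for RNA modification in mitochondria, 1 rose and 6 fell. This is 3.45% higher and 20.7% lower, against 6.72% and 10% of all genes. MTG1, a GTPase that acts in large subunit assembly, was at −0.07, −0.07 and −0.13 in LP-1/Cfz cells, against 0.33, 0.34 and 0.34 in LP-1 cells. Both groups were tight (−0.43, SE 0.0466, limma adjusted p = 0.000754), on a single probe set. MTG1 was the only one of these genes whose call was kept whichever array was left out. The large subunit assembly protein MPV17L2 (−0.31, adjusted p = 0.0227), the pseudouridine synthases RPUSD4 (−0.24, adjusted p = 0.017) and TRUB2 (−0.19, adjusted p = 0.0328), NSUN3 (−0.25, adjusted p = 0.0271), which modifies the mitochondrial methionine tRNA, and RBFA (−0.18, adjusted p = 0.0335), a small subunit maturation factor, also fell, and RBFA, MRPS21, MRPS35 and CHCHD1 are named after their values were seen. TRUB2 and RBFA passed only over genes, with 0 of their probe sets called. NGRN, a protein that binds large subunit rRNA, rose by 0.18 (adjusted p = 0.029). Each of these other calls was lost without at least 2 of the 6 arrays in turn (adjusted p up to 0.128). Without LP-1/Cfz replicate 3, 1 gene rose and 3 fell, as MPV17L2, NSUN3 and TRUB2 were no longer called, and without LP-1 replicate 3 only MTG1 fell.

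Of 17 measured translation factors, 1 rose and 1 fell. This is 5.88% in each direction, against 6.72% of all genes higher and 10% lower. TUFM, the elongation factor that brings tRNA to the ribosome, was at 0.24, 0.23 and 0.16 in LP-1/Cfz cells, against 0.02, 0.04 and 0.03 in LP-1 cells. All LP-1/Cfz samples were higher (0.18, SE 0.0476, limma adjusted p = 0.0371), but 0 of its 2 probe sets were called. The gene call was kept only when the array left out was LP-1/Cfz replicate 3 (adjusted p from 0.0921 to 0.122 without any 1 of the others). MTRFR, which frees stalled mitochondrial ribosomes, was at −0.05, −0.04 and −0.12 in LP-1/Cfz cells and at 0.25, 0.16 and 0.24 in LP-1 cells, with no overlap (−0.28, SE 0.0525, adjusted p = 0.00856).

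**Figure D4:**
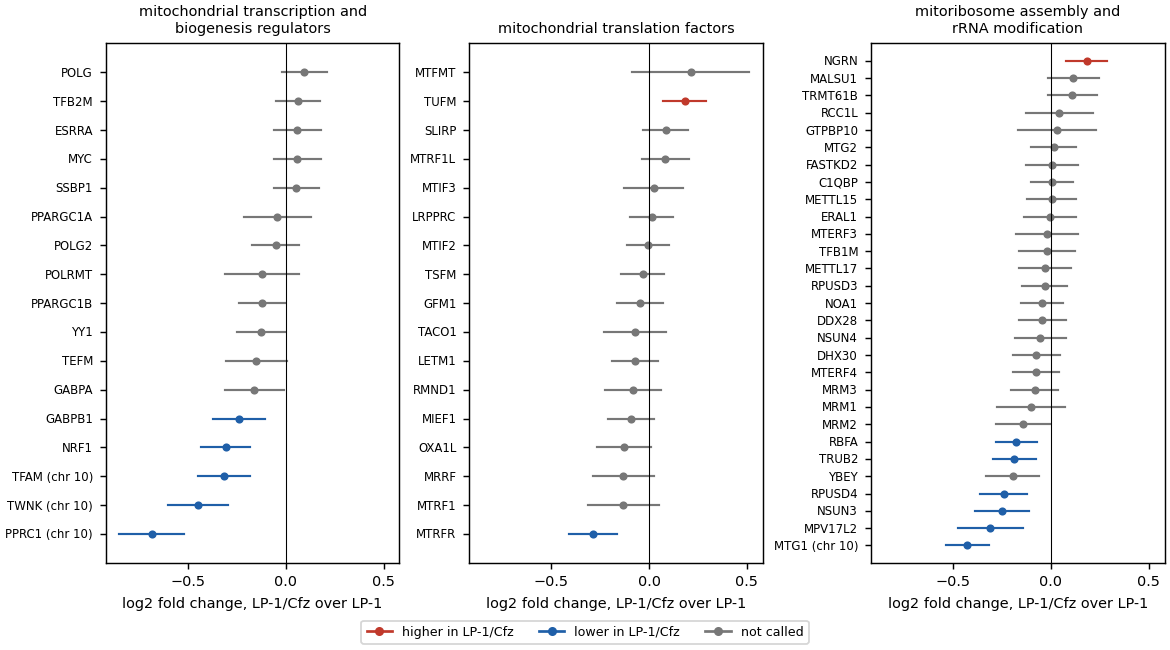
Log2 fold change (LP-1/Cfz over LP-1) with 95% confidence interval for the genes of 3 mitochondrial lists, coloured by the call at an adjusted p under 0.05 over all genes. Called genes are 5 of 17 regulators, 2 of 17 translation factors and 7 of 29 assembly and RNA modification genes, and 4 of those lower are marked as lying on chromosome 10.

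Several of the genes that fell lie on chromosome 10. Of the 7 genes there among the members and the mitochondrial lists, a set formed after the values were seen, 6 fell (PPRC1, TWNK, MTG1, TFAM, MRPS16 and MRPL43), and CHCHD1 gave −0.08 (adjusted p = 0.315). This is 85.7%, where 25.1% of all 777 measured chromosome 10 genes fell. On all other chromosomes 11 of 136 such genes fell (8.09%), against 9.44% of 18946 genes. The calls of all 6 were kept without LP-1/Cfz replicate 3. Those of MRPS16 and MRPL43 were lost without any 1 of the LP-1 samples, and that of MRPL43 also without LP-1/Cfz replicate 2.

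Around some of the members, neighbouring genes changed as well. Over all genes 6.72% rose and 10% fell, but the shares differed between chromosomes. On chromosome 10, 195 of 777 genes fell (25.1%) and 24 rose, and on chromosome 12, 167 of 1036 fell and 98 rose. On chromosome 2, 116 of 1309 fell and 93 rose, and on the chromosome of MRPS28, 141 of 716 fell and 25 rose. Whether neighbours changed more often than the rest of their chromosome was not tested. Among the 10 measured genes on each side, 7 fell and 2 rose around MRPS16, 6 fell and 2 rose around MRPL43, and 7 fell and 0 rose around MRPL42 on chromosome 12. Around MRPL35 on chromosome 2, 5 fell and 3 rose, and around MRPS28, 4 fell and 2 rose. Around the members that rose, 2 neighbours rose and 0 fell beside MRPL51 on chromosome 12 and beside MRPL24 on chromosome 1, and 1 rose and 1 fell beside MRPS33 on chromosome 7. Around MRPS35 on chromosome 12, which gave 0.18 (adjusted p = 0.0568) and was called without LP-1/Cfz replicate 3, 10 rose and 3 fell. The number of copies of these stretches was not measured, and its part in the results was not tested.

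MRPL43 and TWNK, which both fell, start 45 bases apart on opposite strands. The gap between their starts, on the strand of MRPL43 at chr10:100987498-100987542 of GRCh38.p14, is shown because it lies upstream of both genes. The capitals mark CCGGAAG, the letters that ETS factors such as GABPA bind.
MRPL43 to TWNK: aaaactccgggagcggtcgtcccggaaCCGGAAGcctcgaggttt
Promoters of 67 of the 75 member genes, each running from 250 bases before to 50 after the start in RefSeq on GRCh38.p14, were searched on both strands for 4 sets of letters. CCGGAAG occurred in 28 members (41.8%), against 14.2% of 15843 protein coding genes and 10.7% of all 27305 promoters. ATGGCG, part of the letters bound by YY1, occurred in 47.8% of the members, against 14.3% and 11%. CATGCGC, from the NRF1 site, occurred in 10.4%, against 5.87% and 4.67%. CCAAT, the box bound by NF-Y, occurred in 29.9%, against 36.4% and 35.7%. At least 1 of the 4 was present in 80.6% of the members, against 55.0% of protein coding genes. The letters of ATGGCG can also hold the start codon of a gene, and a match is no proof of binding.

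The ETS letters stood in promoters of members that fell and of members that rose. The sites in 2 members that fell, MRPL43 (above) and MRPS16, and in 2 that rose, MRPS33 and MRPL51, are shown with 10 bases on each side, with the letters in capitals on whichever strand they lie. They lie on the minus strand of GRCh38.p14 at chr10:73252623-73252649 for MRPS16, chr7:141014936-141014962 for MRPS33, and chr12:6493365-6493391 and chr12:6493350-6493376 for MRPL51. MRPL42, which fell, had no ETS letters but ATGGCG, on the plus strand at chr12:93467515-93467540.
MRPS16: ggatcatccgCTTCCGGagtcgaggtt
MRPS33: gagggcgggcCTTCCGGgacgagggcg
MRPL51, first site: cgctccaaaaCTTCCGGcaggcggacc
MRPL51, second site: ggcaggcggaCCGGAAGcactgaggcg
MRPL42: ttgaaacaagATGGCGggttcgtggt
The same 7 letters lay near the start of MRPS33, with a log2 fold change of 0.33, and of MRPS16, with −0.22 as a gene. Promoters of MRPL4, MRPL39 and MRPL24 held no ETS letters, and those of MRPL35, MRPL23 and MRPS28 were not among the 67 searched. Whether the letters bear on the direction of change was not tested.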

How the data were processed

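RNA of 3 LP-1/Cfz and 3 LP-1 samples was measured on Affymetrix arrays. The table the authors deposited holds 54613 probe sets as log2 values, made with RMA per the submitters' processing notes (version not given in the sources used here). Values are centred per probe set, on an unstated baseline, which leaves no level or signal over background. The platform annotation names 1 gene for 41091 probe sets, several for 1801 and none for 11721, and 41037 of the 41091 matched RefSeq by gene identifier.

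Differences between LP-1/Cfz and LP-1 were fitted with limma 3.58.1 (R 4.3.3; lmFit, eBayes, no covariate) on all probe sets, and on 19775 genes after the mean of each gene's single-gene probe sets, with Benjamini-Hochberg adjustment over all features. Fits were tested on simulated data. Values are differences of log2 values, LP-1/Cfz minus LP-1, and errors are standard errors of limma. Precision is limited by the number of arrays. An exact two-sided permutation test of 3 against 3 cannot give a p under 0.1. Genes were placed by RefSeq on GRCh38.p14.

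The members, the gene lists and the tests were chosen with earlier results of these data known. Named genes are members with a called probe set, up to 5 called genes in each direction in each list, and MRPL12, MRPS12, DAP3, TUFM, TFAM and POLRMT. The mitochondrial lists are regulators, translation factors, assembly and RNA modification genes, and genes listed as mitochondrial ribosomal proteins with other symbols. GFM2 and AURKAIP1 had no single-gene probe set. Alternatives were leaving out each array, a replicate block, another quantile normalization, array medians set to 0, array weights, a robust prior, leaving out probe sets of low SD, a minimum fold change of 1.2, the 1.7-fold cutoff, members without s_at and x_at probe sets, and the probe set with the largest SD for each gene.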

Additional observations from a re-analysis of the deposited data

How the results depend on the processing

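The called member probe sets and the called genes of the mitochondrial lists kept their direction under the alternatives in which they were measured, and counts of calls moved as follows. Leaving out 1 array in turn gave 0 to 3 higher and 4 to 9 lower member probe sets, 2 to 4 higher and 3 to 5 lower member genes, 3 to 4 called genes of the large and 2 to 5 of the small subunit, and medians from −0.0659 to −0.0192 (large) and from −0.0437 to −0.0102 (small). The lowest counts of probe sets were 0 higher without LP-1 replicate 3 and 4 lower without LP-1 replicate 1, and the 5 small subunit genes were called without LP-1/Cfz replicate 3. It gave 4 to 5 lower and 0 higher regulators, 0 to 1 higher and 1 lower translation factor, 0 to 1 higher and 1 to 3 lower assembly genes, and 0 called genes in the list with other symbols. In these fits 10.5% to 16.1% of all genes were called. The deviations of same-numbered samples from their group means had correlations of −0.0487, 0.126 and −0.00556. With 3 arrays in a group this cannot show whether the numbers pair the samples. With a replicate block, 1 member probe set was higher, 3 large subunit genes were called, and translation factors had 0 higher and assembly genes 0 higher and 3 lower. Of all genes, 13.4% were called with the block. Quantile normalization gave 9 lower member genes, with 8 called in the large and 5 in the small subunit, where 17.3% of all genes were called. With medians set to 0, 8 member genes were called, the same as in the main fit. Both settings gave 0 higher translation factors. Array weights gave 5 higher and 8 lower member genes, 8 in the large and 5 in the small subunit, where 20.4% of all genes were called. Leaving out probe sets of low SD, which removes members near 0 by construction, gave 1 higher probe set, medians of −0.101 and −0.213, 0 higher translation factors, and 0 higher and 3 lower assembly genes. Against a minimum fold change of 1.2, 0 members (higher or lower, probe sets or genes, large or small subunit), 0 translation factors and 0 assembly genes were called, and of the regulators 1, PPRC1. Without s_at and x_at probe sets, 0 member probe sets were higher and 3 lower. Of the 44 member genes left, 1 was higher and 3 were lower, with 0 of the small subunit called, against 16.7% of all genes called. At a 1.7-fold change 0 probe sets were higher and 0 lower. For the changes under quantile normalization, array weights and the block the cause was not tested. The number of arrays and the unknown level of each probe set limit what small differences can show.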
